A study of Danio rerio with 18 samples.

Results

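The 57 collagen genes described here are all rows of the 2 deposited count tables whose zebrafish symbol, ignoring case, begins with col and a digit, out of 32520 gene identifiers. They cover 22 collagen types: 15 fibrillar genes, 12 FACIT genes (collagens that sit on the surface of fibrils), 6 genes of the basement membrane network, 5 of beaded filaments, 5 of short-chain networks, 4 transmembrane collagens, 4 of type XXVIII, 3 multiplexins and 3 of anchoring fibrils. Messenger RNA was sequenced from adult zebrafish cardiac ventricles in 5 groups of 3 libraries each. The 7 dpci ventricles carried the driver cmcl2:Gal4-ERT2 alone and were taken 7 days after cryoinjury, a freezing injury that the zebrafish ventricle can regrow from, and received no drug. The GFP-HRAS rapamycin and GFP-HRAS DMSO ventricles carried the driver with UAS:GFP-HRAS, the oncogene HRAS joined to green fluorescent protein, and the RFP rapamycin and RFP DMSO ventricles carried it with UAS:RFP, a red fluorescent protein. All 4 of these transgenic groups received 4 pulses of 2.5 µM 4-hydroxytamoxifen (4-OHT), which switches on Gal4-ERT2, and either 0.5 µM rapamycin, an inhibitor of the kinase TOR, or 0.05% DMSO, its vehicle, over 16 days. The promoter of the driver comes from a cardiac myosin light chain gene and is active in cardiomyocytes. The labels do not say whether a library came from 1 ventricle or a pool, so each p-value measures only the spread between these libraries.

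Collagens are secreted proteins whose chains wind into triple helices. Fibrillar collagens give tissue its tensile strength, FACIT collagens coat and space the fibrils, and type IV collagen forms the sheet of the basement membrane around cardiomyocytes and vessels. In the heart, fibroblasts and epicardium-derived cells make most fibrillar collagen, endothelial and mural cells contribute to the basement membrane, and a freezing injury leaves a collagen-rich scar that zebrafish later remove.

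Library totals ran from 15861618 to 20003711 counts. Levels are CPM on a scale shared by all 15 libraries, and since they are not divided by gene length, differences in level between genes are not read; a ratio of 1 gene to another compares groups only. The cardiomyocyte marker genes together reached 17557 to 23000 CPM in the GFP-HRAS DMSO libraries, against 34356 to 38687 CPM in RFP DMSO. They reached 33878 to 41303 CPM in GFP-HRAS rapamycin, 35988 to 52582 CPM in RFP rapamycin and 40350 to 41732 CPM in 7 dpci. Every library thus held heart muscle RNA, but these markers do not check that the tissue was ventricle. A zebrafish HRAS gene, ENSDARG00000098497, averaged 7.42 ± 1.09 CPM in GFP-HRAS DMSO, against 1.63 ± 0.325 CPM in RFP DMSO, while the other one, ENSDARG00000005651, averaged 5.95 ± 2.51 CPM in GFP-HRAS DMSO, against 17.7 ± 2.64 CPM in RFP DMSO (SD, n = 3 each). Whether transgene reads are among these counts was not tested, so neither gene checks the labels. In each transgenic group 1 library differed more from the other two than those did from each other, by the chi-square per gene between the counts of 2 libraries. This value was 88.8 and 157 for GFP-HRAS rapamycin replicate 3 (41.6 for the other pair), 81.1 and 87.3 for GFP-HRAS DMSO replicate 1 (26.95), 120 and 169 for RFP rapamycin replicate 3 (49.7), and 71.8 and 88.9 for RFP DMSO replicate 1 (25.6). Each of these libraries also had the highest share of mitochondrially encoded counts in its group. That share was 19.5% in GFP-HRAS rapamycin replicate 3, 16.0% in GFP-HRAS DMSO replicate 1, 20.6% in RFP rapamycin replicate 3 and 21.8% in RFP DMSO replicate 1. Its part in the differences was not tested. Leaving out each library in turn was among the alternatives tried. A gene was called higher or lower at a Benjamini-Hochberg adjusted p under 0.05 in edgeR's quasi-likelihood test, adjusted over all genes tested. Fold changes are log2 values ± their standard error.

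Of the 57 genes, 33 passed the filter on low counts in the fit of the 12 transgenic libraries and 35 in the fit of all 15 libraries, which added COL11A1 and col23a1a. These are not all collagen genes, and a gene may have passed because 1 group was high. The 22 genes tested in neither fit never exceeded 0.915 CPM in a library. They were col5a2b, col5a3b, COL11A2, col24a1, COL2A1 ENSDARG00000069093, col4a3, COL4A4, col6a4b, both col7a1l genes, COL9A1, col9a1b, COL9A2, col9a3, both col19a1 genes, COL10A1 ENSDARG00000054753, col17a1b, col28a1a, col28a2a, col28a2b and col8a1a, the last of which had no counts in any library. Among them are the type IX collagens of cartilage and the col4a3 and COL4A4 chains of specialised basement membranes. In 5 cases a pair of genes shared a symbol, and those genes are named with their identifier.

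The 57 genes together took a small part of all counts in the RFP ventricles and a several-fold larger part after cryoinjury and in GFP-HRAS DMSO ventricles. Their share was 0.806%, 0.777% and 0.693% of all gene counts in the 7 dpci libraries. It was 0.298%, 0.147% and 0.0729% in GFP-HRAS rapamycin and 0.296%, 0.656% and 0.444% in GFP-HRAS DMSO. It was 0.0636%, 0.0661% and 0.0794% in RFP rapamycin and 0.0689%, 0.0487% and 0.0640% in RFP DMSO. Every 7 dpci library lay above every other library, and every GFP-HRAS DMSO library lay above every RFP library. GFP-HRAS rapamycin ranged most widely: replicate 1 reached the lowest GFP-HRAS DMSO library, and replicate 3 lay within the range of RFP rapamycin. In bulk ventricles, more cells of a collagen-making type and more collagen RNA per cell cannot be told apart.

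**Figure D1:**
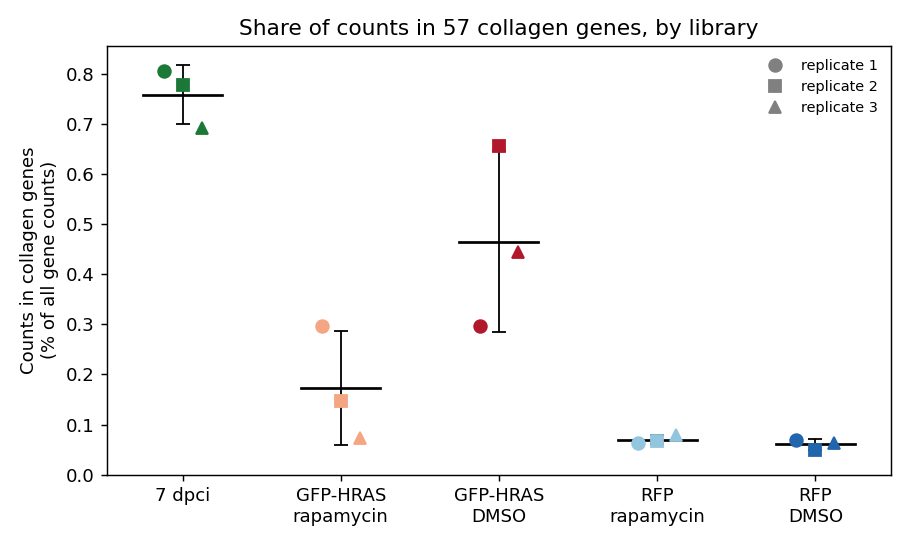
Share of all gene counts taken by the 57 collagen genes (y axis, %) in each library, by group (x axis); points are libraries and bars mark the mean and SD of 3 libraries. The 7 dpci libraries lie between 0.693% and 0.806%, the GFP-HRAS DMSO libraries between 0.296% and 0.656%, and the RFP libraries of both treatments at or below 0.0794%.

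In GFP-HRAS DMSO ventricles most tested collagen genes were higher than in RFP DMSO ventricles, with COL5A2 5.26-fold, COL1A1 11.3-fold and COL1A2 14.5-fold higher. Of the 33 genes tested, 22 were higher and 2 lower, in a comparison in which 47.5% of all 16044 genes were called, 24.9% higher and 22.6% lower. The median log2 fold change was 2.39 over the 33 collagen genes and 0.02 over all genes tested. In 25 of the 33 genes every GFP-HRAS DMSO library exceeded every RFP DMSO library, and in 1 gene every one was lower; of all genes tested, 31.8% and 30.5% were separated in these ways. The calls were spread over most classes: 8 of 9 fibrillar genes, 4 of 6 FACIT genes, 2 of 4 basement membrane genes, 3 of 4 beaded filament genes, 2 of 3 multiplexins, 2 of 3 short-chain genes and the 1 anchoring fibril gene were higher. The fibrillar COL2A1 ENSDARG00000011407 and the transmembrane col23a1b were lower, and the type XXVIII gene col28a1b was not called. Of the 24 calls, 19 held under every alternative processing tried.

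Among the fibrillar collagens, COL1A1 (ENSDARG00000035809), the main chain of type I collagen, had 520, 1053 and 668 CPM in GFP-HRAS DMSO, against 77.8, 43.3 and 77.9 CPM in RFP DMSO. Its groups did not overlap, and its log2 fold change was 3.50 ± 0.52 (edgeR adjusted p = 0.000594). COL1A2 (ENSDARG00000020007), the second chain of the same molecule, had 432, 963 and 498 CPM in GFP-HRAS DMSO, against 58.1, 23.9 and 48.8 CPM in RFP DMSO, a log2 fold change of 3.86 ± 0.67 (adjusted p = 0.00116). The lowest GFP-HRAS DMSO library lay far above the highest RFP DMSO library for both chains. A further type I gene, col1a1a (ENSDARG00000012405), had 15.6, 19.9 and 23.2 CPM in GFP-HRAS DMSO, against 1.24, 1.22 and 2.59 CPM in RFP DMSO, and rose by 3.53 ± 0.58 (adjusted p = 0.000901). Near-identical stretches of these paralogues may share reads, so their split is uncertain.

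Type V collagen, which sits inside type I fibrils and sets their diameter, rose with it. COL5A1 (ENSDARG00000012593) had 189, 464 and 297 CPM in GFP-HRAS DMSO, against 53.9, 35.3 and 41.2 CPM in RFP DMSO (log2 fold change 2.87 ± 0.48, adjusted p = 0.00101). COL5A2 (ENSDARG00000031678) had 246, 389 and 403 CPM in GFP-HRAS DMSO, against 79.1, 52.9 and 66.3 CPM in RFP DMSO (2.39 ± 0.33, adjusted p = 0.000444). Neither gene's groups overlapped. The type XI chain col11a1b (ENSDARG00000009014), which nucleates fibrils in cartilage, had 24, 81.9 and 41.7 CPM in GFP-HRAS DMSO and 3.78, 1.71 and 0.110 CPM in RFP DMSO (4.74 ± 1.0, adjusted p = 0.0033). The minor fibrillar genes col5a3a (3.87 ± 0.96, adjusted p = 0.00707) and col27a1b (3.64 ± 0.80, adjusted p = 0.00403) were also higher. Their groups did not overlap.

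COL2A1 ENSDARG00000011407, a type II collagen gene best known from cartilage and notochord, was the fibrillar gene called lower. It had 6.53, 3.03 and 3.86 CPM in GFP-HRAS DMSO, against 10.5, 6.35 and 9.48 CPM in RFP DMSO, and fell by 0.97 ± 0.29 on the log2 scale (edgeR adjusted p = 0.019). The highest GFP-HRAS DMSO library overlapped the lowest RFP DMSO library. This call did not hold when library totals alone set the scale (adjusted p = 0.152). Nor did it hold when GFP-HRAS DMSO replicate 2 (0.0796) or 3 (0.0687) or RFP DMSO replicate 1 (0.0608) or 3 (0.0573) was left out.

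The FACIT collagens held the largest rises among genes with enough counts in both groups. COL12A1 ENSDARG00000019601, a type XII collagen, the class that links fibrils under load, had 46.4, 139 and 36.9 CPM in GFP-HRAS DMSO, against 1.17, 0.916 and 0.717 CPM in RFP DMSO. All 3 GFP-HRAS libraries lay far above the RFP range, and the log2 fold change was 6.31 ± 0.87 (adjusted p = 0.000448). The other COL12A1 gene, ENSDARG00000078322, had 285, 704 and 533 CPM in GFP-HRAS DMSO, against 30.01, 48.1 and 49.6 CPM in RFP DMSO (3.58 ± 0.60, adjusted p = 0.00101). Its groups did not overlap either. COL14A1 (ENSDARG00000005762), a type XIV collagen of fibril surfaces, had 4.65, 5.08 and 6.29 CPM in GFP-HRAS DMSO, against 0, 0.183 and 0.165 CPM in RFP DMSO (5.41 ± 0.86, adjusted p = 0.000811). It was close to undetected in RFP DMSO. The FACIT gene col21a1 rose by 4.80 ± 0.74 (adjusted p = 0.000719). Not called were col16a1 at 20.4, 22.8 and 12.4 CPM in GFP-HRAS DMSO and 16.3, 14.8 and 20.5 CPM in RFP DMSO (0.11, adjusted p = 0.87), and col14a1b (1.18 ± 0.53, adjusted p = 0.0859). The col16a1 groups overlapped.

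The 2 type IV chains of the general basement membrane rose less than the fibrillar chains. COL4A1 (ENSDARG00000055009) had 104, 260 and 197 CPM in GFP-HRAS DMSO, against 109, 65.1 and 68.4 CPM in RFP DMSO (1.22 ± 0.37, adjusted p = 0.0189). COL4A2 (ENSDARG00000104110), its neighbour in gene order, had 116, 215 and 172 CPM in GFP-HRAS DMSO, against 82.1, 46.5 and 63.4 CPM in RFP DMSO (1.40 ± 0.45, adjusted p = 0.024). The COL4A1 groups overlapped at 1 library each, and those of COL4A2 did not. Neither call held when replicate 2 or 3 of either group was left out, at adjusted p between 0.0522 and 0.0903. The other basement membrane chains, col4a5 (2.01, adjusted p = 0.072) and col4a6 (1.18, adjusted p = 0.181), stayed under 1.5 CPM in GFP-HRAS DMSO and were not called.

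Type VI collagen forms beaded filaments that tie cells and basement membranes to the fibrils, and 3 of its 4 tested genes rose. COL6A2 (ENSDARG00000061436) had 151, 217 and 126 CPM in GFP-HRAS DMSO, against 65.5, 38.9 and 66.0 CPM in RFP DMSO (1.54 ± 0.41, adjusted p = 0.0102). The partner chain col6a1 (ENSDARG00000074908) had 125, 201 and 112 CPM in GFP-HRAS DMSO, against 33.4, 25.8 and 35.6 CPM in RFP DMSO (2.21 ± 0.45, adjusted p = 0.00255). For both chains every GFP-HRAS library exceeded every RFP library. COL6A3 rose by 3.51 ± 0.57 (adjusted p = 0.000865) from a low level. The fourth gene, col6a4a (ENSDARG00000079752), had 69.8, 111 and 39.0 CPM in GFP-HRAS DMSO, against 51.7, 54.2 and 61.4 CPM in RFP DMSO, with overlapping groups and no call (0.40 ± 0.39, adjusted p = 0.42).

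Among the smaller classes, the multiplexin col18a1a (ENSDARG00000036558), a type XVIII proteoglycan of vessel basement membranes, had 33.6, 64.8 and 67.6 CPM in GFP-HRAS DMSO, against 13.0, 17.4 and 9.81 CPM in RFP DMSO (2.05 ± 0.53, adjusted p = 0.00902). Its paralogue col18a1b also rose (1.26 ± 0.42, adjusted p = 0.0289), a call that did not hold when GFP-HRAS DMSO replicate 1 (adjusted p = 0.0931) or 2 (0.0530) or RFP DMSO replicate 2 (0.107) or 3 (0.105) was left out. The short-chain gene COL8A2 rose by 2.03 ± 0.63 (adjusted p = 0.0213), and COL8A1 was not called (2.93 ± 1.20, adjusted p = 0.0639). The COL8A2 call did not hold when GFP-HRAS DMSO replicate 2 (adjusted p = 0.0732) or any 1 of the RFP DMSO libraries (0.0554 to 0.0774) was left out. A further pair of genes had almost no counts in RFP DMSO, and for them the ratio of counts is given with its 95% counting interval. The short-chain gene COL10A1 ENSDARG00000101535 had 1.87, 6.06 and 3.35 CPM in GFP-HRAS DMSO, against 0.130, 0.0611 and 0 CPM in RFP DMSO, a ratio of 63.5 (21.5 to 310; 273 against 3 counts; adjusted p = 0.00171). The anchoring fibril gene col7a1 had 1.69, 3.11 and 1.79 CPM in GFP-HRAS DMSO, against 0, 0 and 0.0551 CPM in RFP DMSO, a ratio of 110 (19.5 to 4381; 158 against 1 counts; adjusted p = 0.00574). Both were present in every GFP-HRAS DMSO library, though at a few CPM.

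Against this direction, the transmembrane collagen col23a1b (ENSDARG00000089078) was lower. It had 28.5, 10.7 and 16.1 CPM in GFP-HRAS DMSO, against 68.9, 31.7 and 39.2 CPM in RFP DMSO, and it fell by 1.33 ± 0.35 on the log2 scale (edgeR adjusted p = 0.00997). The groups did not overlap, and the call held under every alternative. Transmembrane collagens are anchored in the membrane of the cell that makes them.

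**Figure D2:**
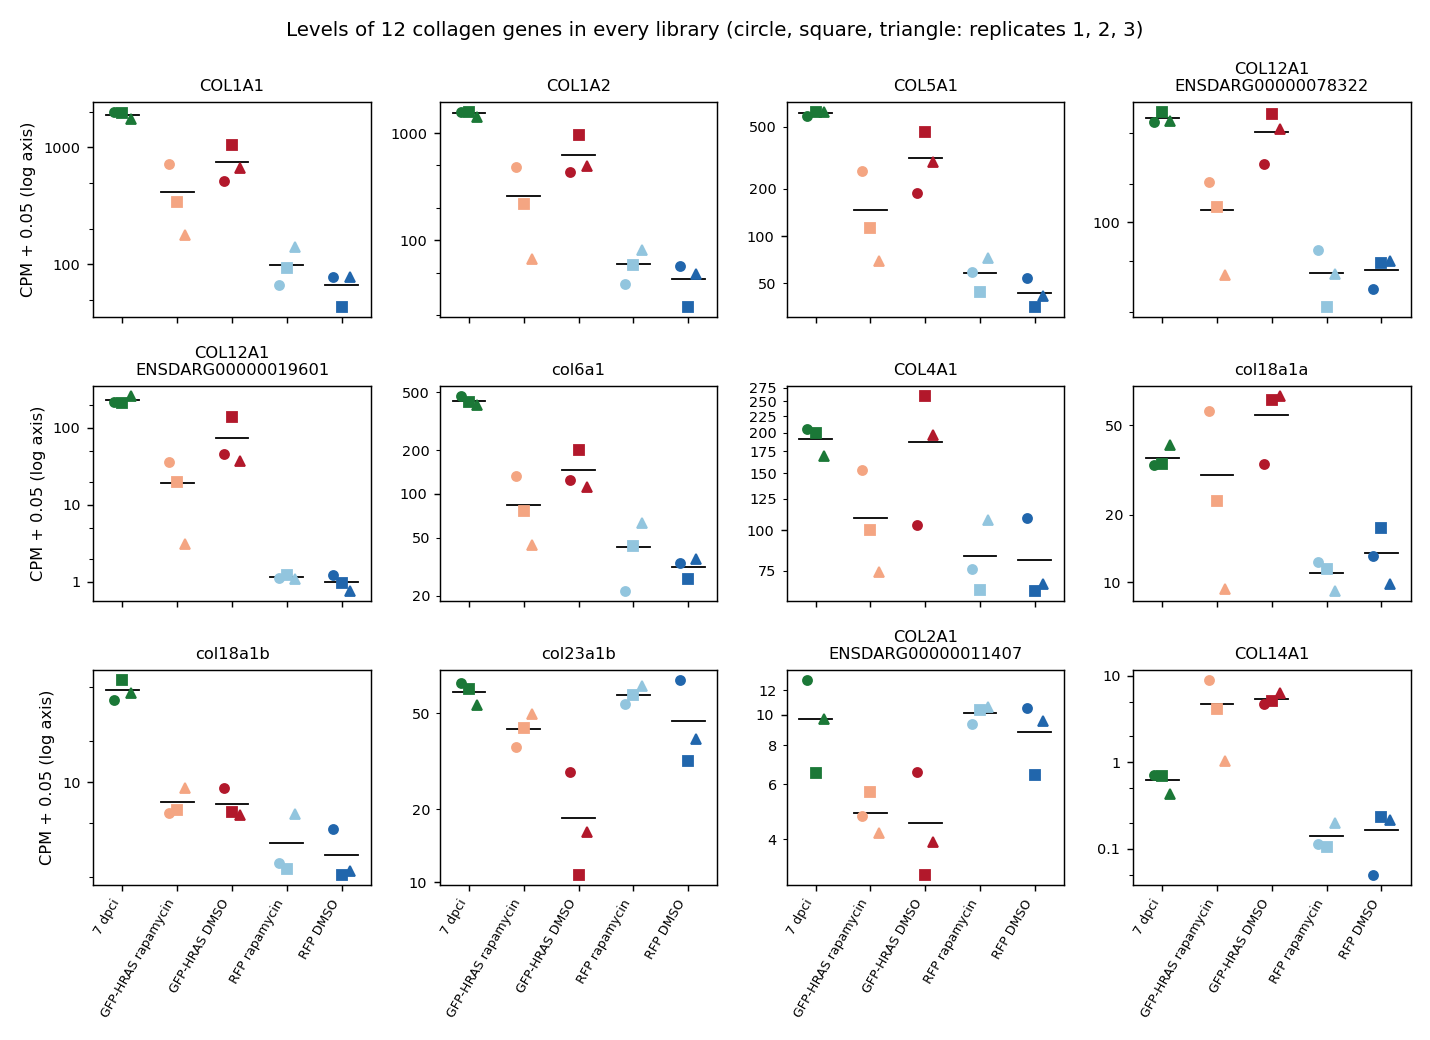
Level of 12 collagen genes (CPM plus 0.05, log axis) in every library, by group on the x axis; circles, squares and triangles are replicates 1, 2 and 3. COL12A1 ENSDARG00000019601 lies at 209 to 264 CPM in 7 dpci and at 0.717 to 1.17 CPM in RFP DMSO, while COL14A1 is higher in GFP-HRAS DMSO than in 7 dpci.

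Cell-type markers moved with these rises, and their part in them was not tested. Of 13 fibroblast markers tested, 8 were higher and 1 lower in GFP-HRAS DMSO, where 24.9% and 22.6% of all genes were, and their summed level ran from 387 to 890 CPM, against 175 to 195 CPM in RFP DMSO. Within that sum DCN had 240, 342 and 164 CPM in GFP-HRAS DMSO and 90.3, 66.6 and 81.0 CPM in RFP DMSO. POSTN ENSDARG00000104267 had 64.9, 403 and 112 CPM in GFP-HRAS DMSO and 7.31, 40.3 and 3.75 CPM in RFP DMSO. PDGFRA went down, with 6.43, 10.7 and 11.6 CPM in GFP-HRAS DMSO and 52.5, 47.4 and 56.2 CPM in RFP DMSO. None of the fibroblast markers was at 0 in any group, and DCN, LUM and both POSTN genes are also on a list of collagen partner genes. Of 11 smooth muscle and mural markers 7 were higher, with sums of 1222 to 3345 CPM in GFP-HRAS DMSO and 186 to 245 CPM in RFP DMSO. A large part of these GFP-HRAS DMSO sums was TAGLN ENSDARG00000045408, at 609, 2361 and 1705 CPM, against 6.85, 3.54 and 5.46 CPM in RFP DMSO. All 7 tested macrophage and leukocyte markers were higher, with sums of 585 to 721 CPM in GFP-HRAS DMSO and 49.2 to 103 CPM in RFP DMSO. Endothelial and endocardial markers went the other way, with 7 of 8 lower and sums of 560 to 665 CPM in GFP-HRAS DMSO and 1982 to 2212 CPM in RFP DMSO, and 4 of 6 cardiomyocyte markers were lower. Of 7 epicardial markers 1 was higher and 1 lower, with a median log2 fold change of -0.11. Their sums, 387 to 464 CPM in GFP-HRAS DMSO and 1237 to 1485 CPM in RFP DMSO, were mostly podxl. That gene had 388, 317 and 326 CPM in GFP-HRAS DMSO and 1158, 1436 and 1364 CPM in RFP DMSO. Of 6 thrombocyte markers 2 were higher and 4 lower, and of 5 cartilage and bone markers 1 was higher. None of 2 Schwann cell or 3 epidermal markers was called.

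Under rapamycin, fewer collagen genes separated the GFP-HRAS from the RFP ventricles. Of the 33 genes tested, 12 were higher and 1 lower in GFP-HRAS rapamycin than in RFP rapamycin, where 18.1% of all genes were called, 10.4% higher and 7.71% lower. The collagen median was 1.34 on the log2 scale, against 0.00 over all genes. The libraries of the groups did not overlap for 11 genes higher and 2 lower, as was so for 16.8% and 16.2% of all genes. The called genes were 4 of 9 fibrillar genes, 4 of 6 FACIT genes, COL8A1, COL10A1 ENSDARG00000101535, col7a1 and col17a1a, with COL2A1 ENSDARG00000011407 lower. No gene of the basement membrane, beaded filament or multiplexin classes was called. Markers of other cells moved here too, and their part in the result was not tested. Of 11 smooth muscle and mural markers 5 were higher, with sums of 680 to 3131 CPM in GFP-HRAS rapamycin and 195 to 320 CPM in RFP rapamycin. Of 13 fibroblast markers 4 were higher and 1 lower, with sums of 171 to 663 CPM in GFP-HRAS rapamycin and 188 to 212 CPM in RFP rapamycin. PDGFRA went down, with 14.3, 7.74 and 5.19 CPM in GFP-HRAS rapamycin and 58.3, 43.5 and 32.1 CPM in RFP rapamycin. Of 8 endothelial markers 3 were lower, with sums of 1006 to 1492 CPM in GFP-HRAS rapamycin and 1707 to 1967 CPM in RFP rapamycin, and 2 of 7 macrophage and leukocyte markers were higher.

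COL12A1 ENSDARG00000019601 had 35.8, 19.5 and 3.05 CPM in GFP-HRAS rapamycin, against 1.09, 1.17 and 1.05 CPM in RFP rapamycin (4.13 ± 0.81, edgeR adjusted p = 0.00912). COL14A1 had 8.97, 4.07 and 0.977 CPM in GFP-HRAS rapamycin, against 0.0639, 0.0558 and 0.151 CPM in RFP rapamycin (5.66 ± 0.91, adjusted p = 0.00451). The groups of both genes were separate, replicate 3 was the lowest GFP-HRAS library in both, and these were the 2 calls of 13 that held under every alternative. COL1A1 had 722, 341 and 178 CPM in GFP-HRAS rapamycin, against 66.5, 92.9 and 140 CPM in RFP rapamycin (2.05 ± 0.49, adjusted p = 0.0188), and COL1A2 had 487, 219 and 67.2 CPM against 39.1, 58.9 and 80.5 CPM in RFP rapamycin (2.12 ± 0.62, adjusted p = 0.0376). Replicate 3 overlapped the RFP range for COL1A2 and lay just above it for COL1A1. The COL1A1 call was lost without GFP-HRAS rapamycin replicate 1 (adjusted p = 0.0762) and RFP rapamycin replicate 1 (0.0605) or 2 (0.0723). The COL1A2 call was lost without GFP-HRAS rapamycin replicate 1 (adjusted p = 0.178) or 2 (0.0808) and without any 1 of the RFP rapamycin libraries (0.109, 0.110 and 0.0545).

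Of the other fibrillar calls, COL5A2 had 279, 165 and 115 CPM in GFP-HRAS rapamycin, against 72.4, 85.0 and 105 CPM in RFP rapamycin (1.09 ± 0.32, adjusted p = 0.0372), and its groups were separate. The gene col1a1a had 18.5, 8 and 3.24 CPM in GFP-HRAS rapamycin, against 2.49, 2.34 and 4.21 CPM in RFP rapamycin (1.73 ± 0.54, adjusted p = 0.0467), with replicate 3 inside the RFP range. The short-chain gene COL8A1 had 12.9, 1.07 and 0.122 CPM in GFP-HRAS rapamycin, against 0.383, 0.279 and 0.151 CPM in RFP rapamycin (4.08 ± 1.25, adjusted p = 0.0438), with replicate 3 below every RFP library. The COL5A2 call did not hold without replicate 1 or 2 of either group (adjusted p 0.0787 to 0.160). The calls of col1a1a (0.0556 to 0.234) and COL8A1 (0.0573 to 0.452) did not hold without any 1 of the libraries but GFP-HRAS rapamycin replicate 3, and without GFP-HRAS rapamycin replicate 1 the COL8A1 log2 fold change was 1.09.

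COL10A1 ENSDARG00000101535 had 4.69, 1.67 and 0.367 CPM in GFP-HRAS rapamycin and 0, 0.0558 and 0.0753 CPM in RFP rapamycin, a ratio of counts of 56.9 (15.4 to 475; adjusted p = 0.0115). The hemidesmosome collagen col17a1a, which anchors epithelial cells, had 0.548, 0.667 and 0.794 CPM in GFP-HRAS rapamycin and no counts in RFP rapamycin, so it was at least 10.3-fold higher, taking 3 counts over the group as the floor (adjusted p = 0.0434). The anchoring fibril gene col7a1 had 1.94, 0.200 and 0.0611 CPM in GFP-HRAS rapamycin and no counts in RFP rapamycin (adjusted p = 0.0367), and 39 of its 43 counts came from replicate 1, so no fold is given. All 3 stayed at a few CPM or less. With 1 library left out, the COL10A1 ENSDARG00000101535 call did not hold without RFP rapamycin replicate 2 (adjusted p = 0.0514), that of col17a1a without any 1 of the 6 libraries (0.0514 to 0.113), and that of col7a1 without any but GFP-HRAS rapamycin replicate 3 (0.0538 to 0.114). The FACIT gene col14a1b had 3.79, 1.40 and 0.916 CPM in GFP-HRAS rapamycin, against 0.256, 0.391 and 0.151 CPM in RFP rapamycin (2.89 ± 0.59, adjusted p = 0.0102). COL2A1 ENSDARG00000011407 had 4.69, 5.60 and 4.15 CPM in GFP-HRAS rapamycin, against 9.33, 10.3 and 10.5 CPM in RFP rapamycin, with no overlap (-1.06 ± 0.30, adjusted p = 0.0319). That call did not hold when any 1 of the 6 libraries was left out (adjusted p 0.0524 to 0.106). The number of called collagen genes was 4 without GFP-HRAS rapamycin replicate 1, 6 without replicate 2 and 15 without replicate 3. Over all genes, those fits called 1008 of 16613, 989 of 16675 and 4864 of 16645. The collagen number was 5 without RFP rapamycin replicate 1, 4 without replicate 2 and 9 without replicate 3, where 1686 of 16686, 881 of 16654 and 2399 of 16700 genes were called. The collagen calls were thus fewest and most where calls over all genes were also few and many.

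**Figure D3:**
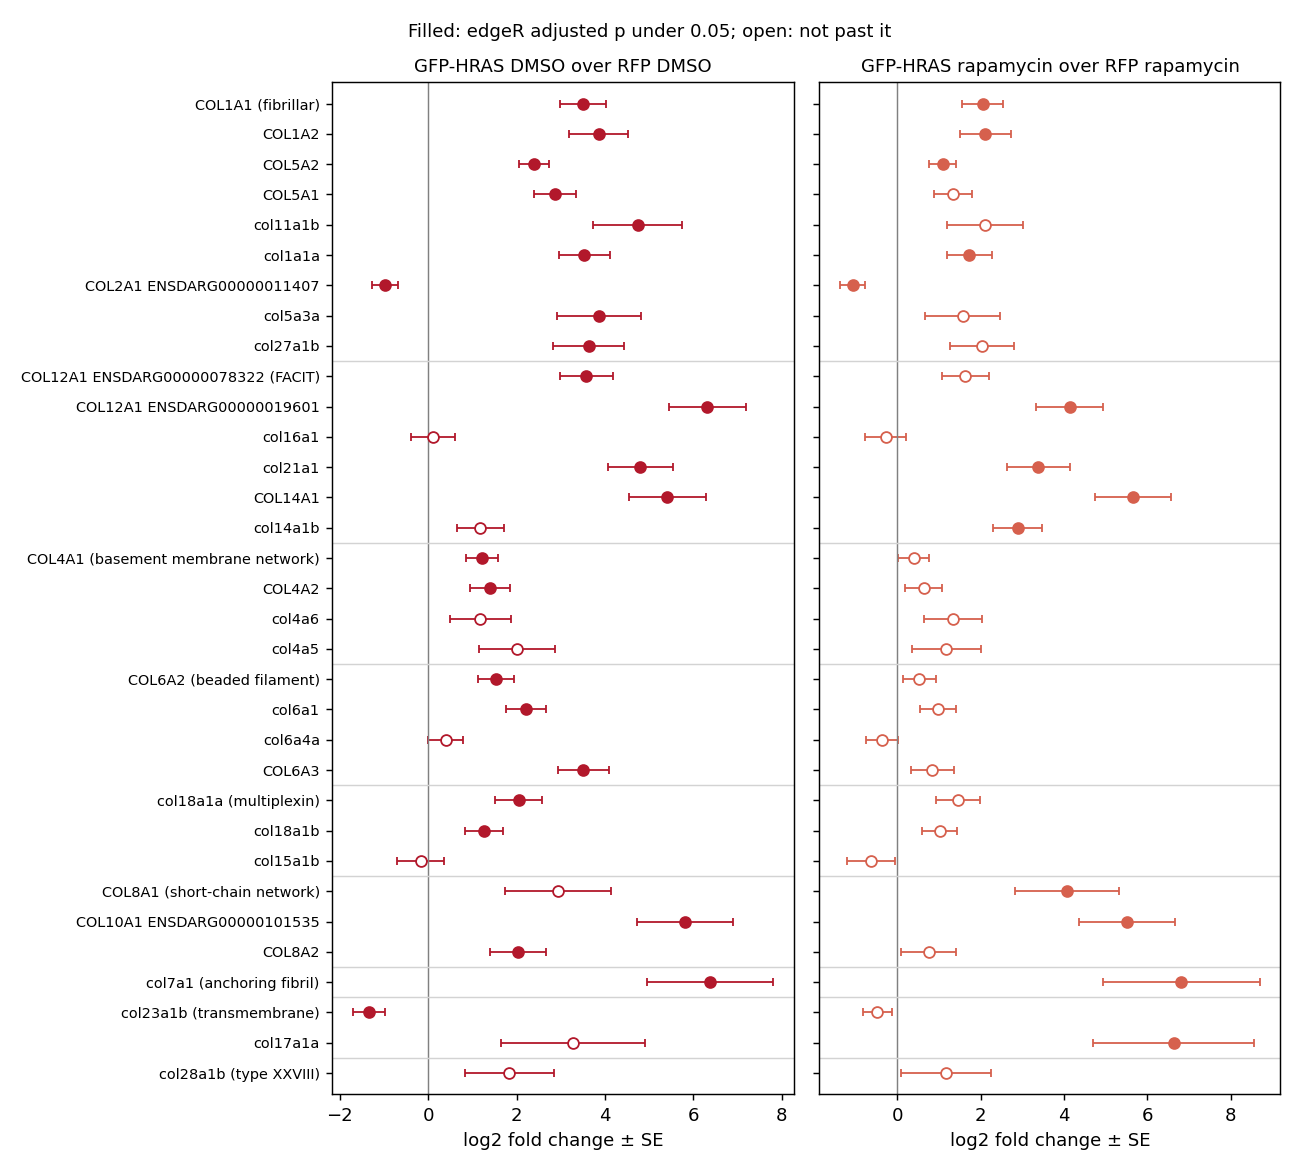
Log2 fold change ± SE (x axis) of each tested collagen gene (rows) for GFP-HRAS DMSO against RFP DMSO and GFP-HRAS rapamycin against RFP rapamycin. Filled points passed an edgeR adjusted p under 0.05. In DMSO 22 genes lie right of 0 with filled points and 2 left of it. Under rapamycin 12 genes are filled on the right of 0 and 1 on the left.

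Within GFP-HRAS ventricles, rapamycin against DMSO gave 1 collagen gene higher and 1 lower of 33 tested, where 12.1% of all genes were called, 5.83% higher and 6.3% lower. The collagen median was -0.80 on the log2 scale, against 0.01 over all genes, and 26 of the 33 log2 fold changes were negative. The groups did not overlap for 1 gene higher and 4 lower, as was so for 16.5% and 18.1% of all genes. COL12A1 ENSDARG00000078322 had 207, 132 and 38.9 CPM in GFP-HRAS rapamycin, against 285, 704 and 533 CPM in GFP-HRAS DMSO, and fell by 2.01 ± 0.56 (edgeR adjusted p = 0.0399). The transmembrane col23a1b had 36.2, 43.2 and 49.8 CPM in GFP-HRAS rapamycin, against 28.5, 10.7 and 16.1 CPM in GFP-HRAS DMSO, and rose by 1.22 ± 0.35 (adjusted p = 0.0454). The groups of both genes were separate, and the col23a1b libraries under rapamycin lay within the RFP DMSO range of 31.7 to 68.9 CPM. They lay below every RFP rapamycin library (54.4, 59.7 and 64.9 CPM), though col23a1b was not called in that comparison. The type I chains did not pass the test, COL1A1 at -0.86 ± 0.47 (adjusted p = 0.252) and COL1A2 at -1.29 ± 0.60 (adjusted p = 0.176), and their libraries overlapped.

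Neither of these 2 calls held under every alternative. Both were lost when either GFP-HRAS group was fitted without replicate 2 or 3, at adjusted p between 0.0791 and 0.157, and when the pair of groups was fitted alone, at 0.0959 for COL12A1 ENSDARG00000078322 and 0.0892 for col23a1b. Without GFP-HRAS rapamycin replicate 1, the library with the highest collagen share of its group, 10 genes were called, 1 higher and 9 lower, where 1135 of all 16613 genes tested were higher and 1170 lower. With library totals alone as the scale 6 genes were called lower and 0 higher, but that scale also moved the median log2 fold change of all genes by -0.44. Summed fibroblast markers ran from 171 to 663 CPM in GFP-HRAS rapamycin, lowest in replicate 3, against 387 to 890 CPM in GFP-HRAS DMSO, and macrophage and leukocyte markers from 58.3 to 167 CPM against 585 to 721 CPM in GFP-HRAS DMSO. None of 13 fibroblast markers was called and 4 of 7 macrophage and leukocyte markers were lower. Endothelial markers were higher in 5 of 8 cases, with sums of 1006 to 1492 CPM in GFP-HRAS rapamycin and 560 to 665 CPM in GFP-HRAS DMSO, and 2 of 6 cardiomyocyte markers were higher, with sums of 33878 to 41303 CPM in GFP-HRAS rapamycin and 17557 to 23000 CPM in GFP-HRAS DMSO. The part of these markers in the result was not tested.

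In RFP ventricles, rapamycin against DMSO gave no collagen call among 33 genes, where 0.0% of all genes were called by edgeR; DESeq2 called 0 collagen genes as well. The groups did not overlap for 1 gene higher and 1 lower, against 5.82% and 5.24% of all genes. At an unadjusted edgeR p under 0.05 there was 1 of 33 collagen genes, COL6A3, against 787 of all 16044 genes. COL6A3 had 0.383, 0.614 and 0.376 CPM in RFP rapamycin against 0.196, 0.0611 and 0.165 CPM in RFP DMSO (1.67 ± 0.60, adjusted p = 0.994). COL1A1 had 66.5, 92.9 and 140 CPM in RFP rapamycin and 77.8, 43.3 and 77.9 CPM in RFP DMSO, and its groups overlapped. The test of whether rapamycin acted differently in the GFP-HRAS and the RFP lines called 0 collagen genes in edgeR and 0 in DESeq2, where 0.0499% of all genes were called by edgeR, 0.00623% in the positive and 0.0436% in the negative direction. At an unadjusted edgeR p under 0.05 there were 5 of 33 collagen genes, against 2303 of all 16044 genes. The lowest adjusted p of a collagen gene was 0.175, for COL6A3 (-2.66 ± 0.76). No collagen gene passed, so a different response to rapamycin in the 2 lines was not shown for any of them. Over the 33 genes the median of this difference was -0.82 on the log2 scale, against 0.01 over all genes, with 26 negative and 7 positive. Within RFP the collagen median was 0.27, against 0.01 over all genes, with 22 positive and 11 negative. The genes as a set were not tested.

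After cryoinjury nearly all tested collagen genes were higher than in RFP DMSO ventricles, with COL1A1 28.8-fold and COL1A2 35.1-fold higher. Of 35 genes tested, 29 were higher and 1 lower, where 36.4% of all 16421 genes were called, 18.8% higher and 17.7% lower. The collagen median was 3.56 on the log2 scale, against 0.02 over all genes. Of the 35 genes, 30 had every 7 dpci library above every RFP DMSO library and 1 had every one below, as did 29.6% and 28.1% of all genes. The rises took in 9 of 10 fibrillar genes, 4 of 6 FACIT genes, all 4 basement membrane and all 4 beaded filament genes. They also took in all 3 multiplexin and all 3 short-chain genes, the anchoring fibril gene and 1 of 3 transmembrane genes. The type XXVIII gene tested was not called. COL11A1 and col23a1a passed the filter on low counts only with the 7 dpci libraries added, where both were highest. The tallies and median here include them and so depend in part on that filter. These groups come from separate tables, and besides the injury they differ in strain, in 4-OHT and in vehicle, which cannot be told apart. Uninjured ventricles were not analysed here.

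COL1A1 had 2027, 1954 and 1756 CPM in 7 dpci, against the 43.3 to 77.9 CPM in RFP DMSO given above, a log2 fold change of 4.85 ± 0.51 (edgeR adjusted p = 0.000111). COL1A2 had 1583, 1591 and 1415 CPM in 7 dpci and rose by 5.13 ± 0.65 (adjusted p = 0.000237). The 7 dpci libraries were close to each other for both chains. COL5A1 had 584, 623 and 620 CPM in 7 dpci (3.81 ± 0.46, adjusted p = 0.0002), and COL5A2 had 554, 526 and 506 CPM (3.0 ± 0.31, adjusted p = 0.000103), both far above every RFP DMSO library. The type XI chain col11a1b had 145, 149 and 122 CPM in 7 dpci and rose by 6.23 ± 0.96 (adjusted p = 0.000566). COL11A1, another type XI gene, had 1.39, 0.915 and 3.17 CPM in 7 dpci, against 0, 0.0611 and 0 CPM in RFP DMSO, a ratio of counts of 89.8 (15.8 to 3579; 104 against 1 counts; adjusted p = 0.000806). It was at a low level in all 3 injured libraries.

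COL12A1 ENSDARG00000019601 had the largest rise among genes with over 3 counts in each group: 216, 209 and 264 CPM in 7 dpci, against 0.717 to 1.17 CPM in RFP DMSO (7.94 ± 0.86, adjusted p = 0.000127). COL12A1 ENSDARG00000078322 had 614, 733 and 620 CPM in 7 dpci (3.94 ± 0.56, adjusted p = 0.000399). The FACIT gene col16a1, not called for GFP-HRAS DMSO, had 67.1, 44.4 and 59.8 CPM in 7 dpci and rose by 1.73 ± 0.47 (adjusted p = 0.0117). Among the beaded filament genes, COL6A2 had 600, 540 and 519 CPM (3.28 ± 0.40, adjusted p = 0.000208), col6a1 had 473, 426 and 410 CPM (3.79 ± 0.44, adjusted p = 0.000166), and col6a4a had 250, 198 and 200 CPM (1.95 ± 0.38, adjusted p = 0.00195). Every 7 dpci library of all 3 exceeded every RFP DMSO library. The multiplexin col18a1b had 40.6, 57.2 and 45.6 CPM in 7 dpci, against 4.44, 2.02 and 2.15 CPM in RFP DMSO (4.06 ± 0.41, adjusted p = 0.000103). A further multiplexin, col15a1b, had 1.77, 1.35 and 2.13 CPM in 7 dpci, against 0.978, 0.428 and 0.661 CPM in RFP DMSO. It was called higher, but not under every alternative. The short-chain gene COL8A1 (ENSDARG00000003533), a subendothelial collagen, had 11.7, 9.37 and 22.2 CPM in 7 dpci, against 0.196, 0.550 and 0.220 CPM in RFP DMSO (5.46 ± 1.18, adjusted p = 0.00363).

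COL4A1 and COL4A2 rose less than the other genes called higher among the 15 of highest mean CPM, by 1.24 ± 0.34 (adjusted p = 0.0128) and 1.25 ± 0.41 (adjusted p = 0.0296). COL4A1 had 205, 199 and 170 CPM in 7 dpci, above all RFP DMSO libraries, but its call did not hold when RFP DMSO replicate 2 (adjusted p = 0.0580) or 3 (0.0538) was left out. The COL4A2 call did not hold without RFP DMSO replicate 2 or 3 or any 1 of the 7 dpci libraries (0.0517 to 0.114). The FACIT gene col14a1b was called lower, at 0.144, 0.215 and 0.273 CPM in 7 dpci, against 0.783, 0.489 and 0.717 CPM in RFP DMSO (-1.63 ± 0.58, adjusted p = 0.0411), a call that did not hold when any 1 of the 6 libraries was left out (0.0556 to 0.131). Of the 30 calls, 21 held under every alternative. Of 13 fibroblast markers 11 were higher and 1 lower, where 18.8% and 17.7% of all genes were. Their sums ran from 1628 to 1958 CPM in 7 dpci and from 175 to 195 CPM in RFP DMSO. Most of the 7 dpci sums was DCN (554, 492 and 530 CPM) and POSTN ENSDARG00000104267 (777, 775 and 1087 CPM). Both are also on a list of collagen partner genes. The fibroblast marker called lower was PDGFRA, at 25.9, 30.3 and 29.1 CPM in 7 dpci and 52.5, 47.4 and 56.2 CPM in RFP DMSO. Of 7 epicardial markers 6 were higher and 1 lower, but their sums were lower, at 1016 to 1050 CPM in 7 dpci and 1237 to 1485 CPM in RFP DMSO. These sums were mostly podxl, the lower one, at 836, 812 and 896 CPM in 7 dpci and 1158, 1436 and 1364 CPM in RFP DMSO. Among smooth muscle and mural markers 8 of 11 were higher, with sums of 636 to 759 CPM in 7 dpci and 186 to 245 CPM in RFP DMSO. Of 7 macrophage and leukocyte markers 6 were higher, with sums of 239 to 308 CPM in 7 dpci and 49.2 to 103 CPM in RFP DMSO, and 3 of 8 endothelial markers were lower. The part of these markers in the result was not tested.

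**Figure D4:**
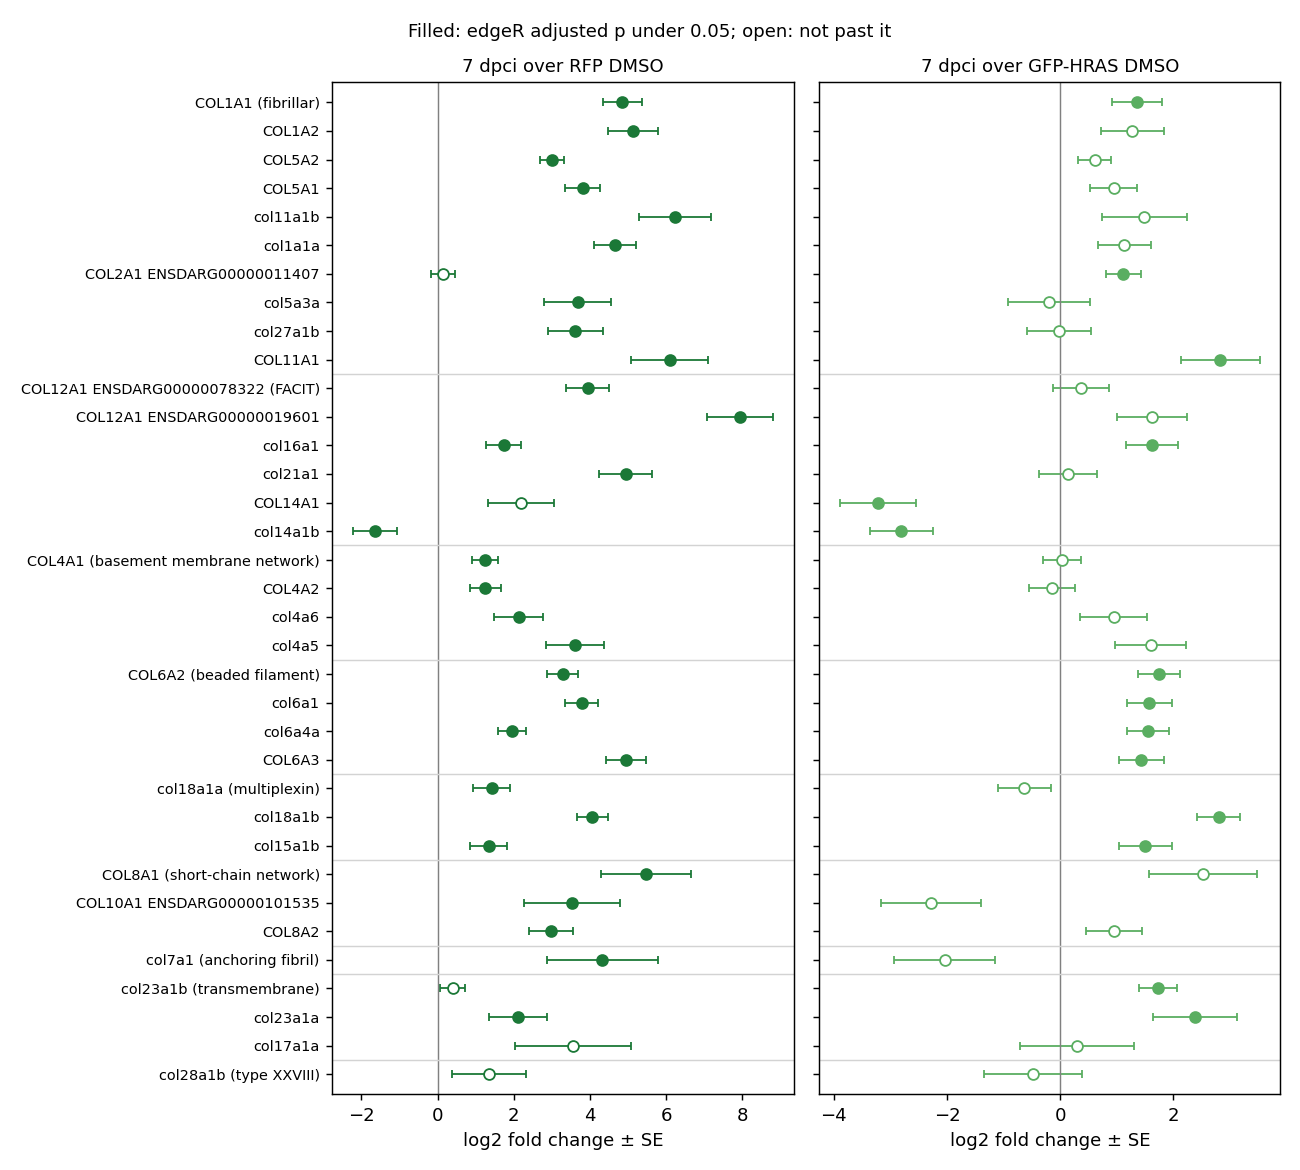
Log2 fold change ± SE (x axis) of each tested collagen gene (rows) for 7 dpci against RFP DMSO and 7 dpci against GFP-HRAS DMSO; filled points passed an edgeR adjusted p under 0.05. Against RFP DMSO 29 genes are filled on the right of 0, and against GFP-HRAS DMSO 12 are filled on the right and 2 on the left.

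Set directly against GFP-HRAS DMSO, the 7 dpci ventricles had 12 collagen genes higher and 2 lower of 35 tested, where 28.8% of all genes were called, 13.3% higher and 15.5% lower. The collagen median was 1.12 on the log2 scale, against -0.05 over all genes. The groups did not overlap for 20 genes higher and 4 lower, as was so for 25.3% and 28.2% of all genes. By class, all 4 beaded filament genes, 2 of 3 multiplexins, 2 of 3 transmembrane genes, 3 of 10 fibrillar genes and 1 of 6 FACIT genes were higher, and 2 FACIT genes were lower. No basement membrane, short-chain or anchoring fibril gene was called. The higher genes include COL11A1 and col23a1a, which passed the filter only with the 7 dpci libraries added, where both were highest. These groups also differ in table, strain, 4-OHT and vehicle, which cannot be told apart from the injury. Of 13 fibroblast markers 7 were higher, with sums of 1628 to 1958 CPM in 7 dpci and 387 to 890 CPM in GFP-HRAS DMSO, and 6 of 7 epicardial and 6 of 8 endothelial markers were higher. Of 11 smooth muscle and mural markers 2 were higher and 4 lower, and 2 of 7 macrophage and leukocyte markers were lower, with sums of 239 to 308 CPM in 7 dpci and 585 to 721 CPM in GFP-HRAS DMSO; the part of these markers was not tested. With library totals alone as the scale the collagen calls were 8 higher and 3 lower of 35, where 1290 of all 16421 genes were higher and 4617 lower. That scale moved the median log2 fold change of all genes to -0.39.

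All 4 tested type VI genes were higher in the injured ventricles. COL6A2 had 600, 540 and 519 CPM in 7 dpci, against 151, 217 and 126 CPM in GFP-HRAS DMSO (1.75 ± 0.38, edgeR adjusted p = 0.00522). The chain col6a1 differed by 1.58 ± 0.40 (adjusted p = 0.0114), col6a4a by 1.56 ± 0.37 (adjusted p = 0.00834) and COL6A3 by 1.43 ± 0.40 (adjusted p = 0.0181). The COL6A2, col6a1 and col6a4a calls held under every alternative, and that of COL6A3 did not hold with library totals (0.0548) or without GFP-HRAS DMSO replicate 2 or 3 or 7 dpci replicate 1 or 2 (0.0514 to 0.0739). The multiplexin col18a1b had 40.6, 57.2 and 45.6 CPM in 7 dpci, against 8.99, 5.94 and 5.66 CPM in GFP-HRAS DMSO (2.80 ± 0.38, adjusted p = 0.000515), whereas its paralogue col18a1a had 33.1, 33.4 and 40.7 CPM in 7 dpci and 33.6, 64.8 and 67.6 CPM in GFP-HRAS DMSO and was not called (-0.63 ± 0.47, adjusted p = 0.333). The difference between the paralogues was not tested. The multiplexin col15a1b, at 0.411, 0.860 and 0.558 CPM in GFP-HRAS DMSO, was also called higher in 7 dpci, but not under every alternative.

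The type IV chains did not separate the groups, with COL4A1 at 0.03 ± 0.34 (adjusted p = 0.954) and COL4A2 at -0.14 ± 0.40 (adjusted p = 0.825). The transmembrane gene col23a1b had 66.5, 63.0 and 54.1 CPM in 7 dpci, against 28.5, 10.7 and 16.1 CPM in GFP-HRAS DMSO (1.73 ± 0.33, adjusted p = 0.0027). Its paralogue col23a1a had 1.39, 0.700 and 1.04 CPM in 7 dpci, against 0.137, 0.123 and 0.319 CPM in GFP-HRAS DMSO (2.39 ± 0.74, adjusted p = 0.0292), a call that did not hold without replicate 1 or 2 of GFP-HRAS DMSO or replicate 1 or 3 of 7 dpci (0.0693 to 0.101). COL11A1 was higher by 2.83 ± 0.70 (adjusted p = 0.00992), a call lost without 7 dpci replicate 3 (adjusted p = 0.0604). COL1A1 was higher by 1.36 ± 0.44 (adjusted p = 0.0348), a call that did not hold with library totals (0.0983). Nor did it hold when GFP-HRAS DMSO replicate 1 (0.0940) or 3 (0.103) or any 1 of the 7 dpci libraries (0.0644 to 0.0834) was left out. COL1A2 (1.28 ± 0.55, adjusted p = 0.0989) and COL5A1 (0.95 ± 0.41, adjusted p = 0.101) were not called.

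The 2 genes lower in 7 dpci were the type XIV collagens. COL14A1 had 0.671, 0.646 and 0.383 CPM in 7 dpci, against 4.65, 5.08 and 6.29 CPM in GFP-HRAS DMSO (-3.22 ± 0.66, adjusted p = 0.00411). The paralogue col14a1b had 0.144, 0.215 and 0.273 CPM in 7 dpci, against 1.32, 1.84 and 1.35 CPM in GFP-HRAS DMSO (-2.81 ± 0.56, adjusted p = 0.00335). The groups did not overlap for either gene, and both calls held under every alternative. COL10A1 ENSDARG00000101535 had 1.63, 0.538 and 0.109 CPM in 7 dpci, against 1.87, 6.06 and 3.35 CPM in GFP-HRAS DMSO, but was not called (-2.28 ± 0.88, adjusted p = 0.067). Nor was col7a1 (-2.04 ± 0.90, adjusted p = 0.109).

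The make-up of the collagen counts differed between groups, given here without a test since members were chosen together. Type I genes took 46.7% ± 0.911 of collagen counts in 7 dpci, 36.0% ± 6.24 in GFP-HRAS rapamycin, 38.8% ± 2.43 in GFP-HRAS DMSO, 19.7% ± 3.89 in RFP rapamycin and 16.8% ± 3.18 in RFP DMSO (SD, n = 3 each). Type IV genes ran the other way, at 4.66% ± 0.214 in 7 dpci, 12.8% ± 1.83 in GFP-HRAS rapamycin, 9.97% ± 1.15 in GFP-HRAS DMSO, 18.4% ± 2.54 in RFP rapamycin and 22.2% ± 2.65 in RFP DMSO. Type XII genes took 11.9% ± 1.0 in 7 dpci, 7.68% ± 2.43 in GFP-HRAS rapamycin, 15.9% ± 2.11 in GFP-HRAS DMSO, 5.29% ± 2.93 in RFP rapamycin and 7.04% ± 2.76 in RFP DMSO, with the highest mean in GFP-HRAS DMSO. Since genes differ in length, these parts compare groups and not types. All parts come out of the same total, so a lower share is not a lower level. Type IV genes together had 377, 350 and 315 CPM in 7 dpci, against 192, 112 and 132 CPM in RFP DMSO.

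**Figure D5:**
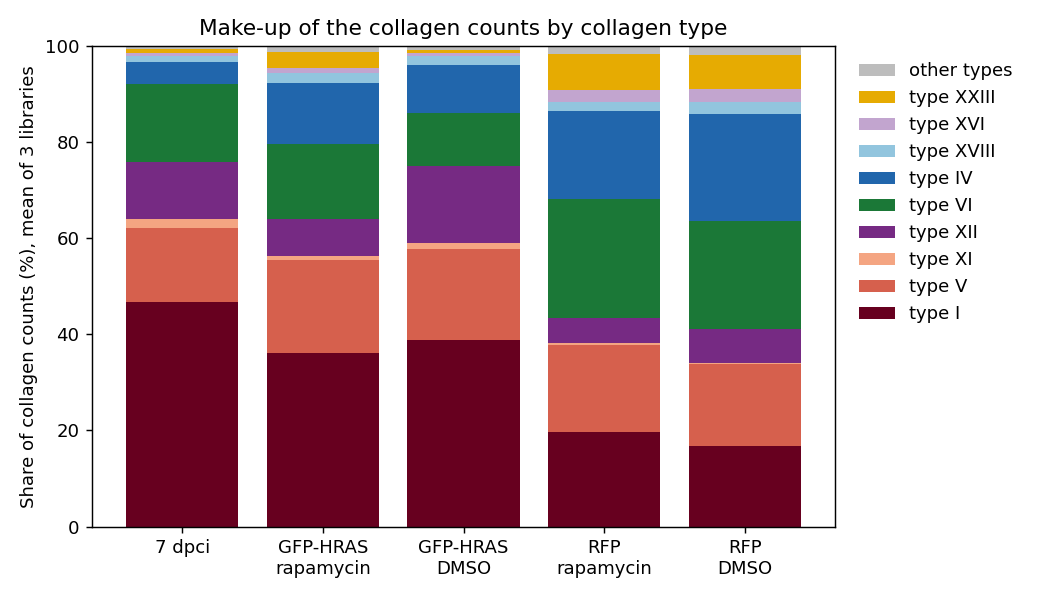
Share of the collagen counts (y axis, %, mean of 3 libraries) by collagen type, one stacked bar per group (x axis). Type I takes 46.7% in 7 dpci and 16.8% in RFP DMSO, and type IV 4.66% in 7 dpci and 22.2% in RFP DMSO.

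Chain ratios within a type were also computed from the counts of each library. Type VI molecules join an alpha 1 and an alpha 2 chain to a further, related chain, and the col6a1 to COL6A2 ratio was 0.789 ± 0.000442 in 7 dpci, 0.733 ± 0.112 in GFP-HRAS rapamycin, 0.882 ± 0.0487 in GFP-HRAS DMSO, 0.560 ± 0.0141 in RFP rapamycin and 0.571 ± 0.0818 in RFP DMSO (SD, n = 3 each). Every 7 dpci library (0.788 or more) and every GFP-HRAS DMSO library (0.832 or more) lay above every RFP library. The highest ratio was 0.571 in RFP rapamycin and 0.664 in RFP DMSO. The COL1A1 to COL1A2 ratio was 1.25 ± 0.0273 in 7 dpci, 1.90 ± 0.653 in GFP-HRAS rapamycin, 1.21 ± 0.125 in GFP-HRAS DMSO, 1.67 ± 0.0820 in RFP rapamycin and 1.58 ± 0.236 in RFP DMSO. The ratio of the 2 type XII genes, ENSDARG00000019601 to ENSDARG00000078322, was 0.354 ± 0.0703 in 7 dpci, 0.133 ± 0.0490 in GFP-HRAS rapamycin, 0.143 ± 0.0666 in GFP-HRAS DMSO, 0.0328 ± 0.0185 in RFP rapamycin and 0.0242 ± 0.0131 in RFP DMSO. It was thus highest after injury, and no test was run on these ratios.

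Genes whose products make, fold, export, cross-link and remove collagen were described from 6 lists. In GFP-HRAS DMSO against RFP DMSO, 7 of 14 hydroxylase and glycosylation genes were higher and 0 lower, 8 of 14 folding and export genes higher and 2 lower, and 8 of 16 cleavage and cross-linking genes higher and 2 lower. Of 23 fibril-associated matrix genes 13 were higher and 1 lower, and of 12 degradation genes 10 were higher and 0 lower. Of 7 receptor genes 1 was higher and 1 lower. The degradation list includes TIMP2 genes, whose products inhibit proteases, so it does not hold collagen-removing genes alone. In 7 dpci against RFP DMSO the same lists had 9 of 14 higher and 0 lower, 9 of 14 higher and 3 lower, 9 of 16 higher and 0 lower, 18 of 25 higher and 0 lower, 7 of 12 higher and 0 lower, and 2 of 8 higher and 1 lower. Both comparisons use the RFP DMSO libraries. Of all genes tested, 24.9% were higher and 22.6% lower in GFP-HRAS DMSO, and 18.8% higher and 17.7% lower in 7 dpci. In GFP-HRAS rapamycin against GFP-HRAS DMSO, 1 hydroxylase gene was higher and 1 lower, 1 cross-linking gene and 1 degradation gene were lower, and no gene of the other 3 lists was called, where 5.83% of all genes were higher and 6.3% lower.

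The lysyl hydroxylase PLOD2, which prepares collagen for stable cross-links, had 161, 162 and 155 CPM in 7 dpci, 48.7, 148 and 126 CPM in GFP-HRAS DMSO and 24.3, 15.6 and 14.6 CPM in RFP DMSO. It was higher than in RFP DMSO by 3.13 ± 0.43 in 7 dpci (edgeR adjusted p = 0.000347) and by 2.57 ± 0.46 in GFP-HRAS DMSO (adjusted p = 0.0014). SERPINH1 ENSDARG00000075954, a collagen chaperone, had 103, 109 and 104 CPM in 7 dpci, 32.9, 78.4 and 72.0 CPM in GFP-HRAS DMSO and 7.24, 2.02 and 1.98 CPM in RFP DMSO. It was higher than in RFP DMSO by 4.82 ± 0.60 in 7 dpci (adjusted p = 0.000218) and by 4.04 ± 0.64 in GFP-HRAS DMSO (adjusted p = 0.000772). For PLOD2 and SERPINH1 ENSDARG00000075954 the 7 dpci and the GFP-HRAS DMSO libraries lay above all RFP DMSO libraries. The other SERPINH1 gene, ENSDARG00000019949, had 87.1, 53.1 and 44.4 CPM in 7 dpci. It had 5.20, 7.74 and 16.4 CPM in GFP-HRAS DMSO and 4.63, 3.05 and 4.24 CPM in RFP DMSO. The export factor mia3, which loads procollagen into transport vesicles, was lower than in RFP DMSO in both, with log2 fold changes of -0.79 ± 0.18 in 7 dpci (adjusted p = 0.00419) and -1.06 ± 0.20 in GFP-HRAS DMSO (adjusted p = 0.00164).

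The cross-linking enzymes split. The lysyl oxidase LOX had 15.5, 9.69 and 17.7 CPM in 7 dpci, 8.53, 35.1 and 34.2 CPM in GFP-HRAS DMSO and 2.54, 0.611 and 0.882 CPM in RFP DMSO. It rose by 3.42 ± 0.91 in 7 dpci (adjusted p = 0.0108, and 0.0510 without RFP DMSO replicate 2) and by 4.28 ± 1.0 in GFP-HRAS DMSO (adjusted p = 0.00531). Its relative loxl5b had 1.39, 1.13 and 0.820 CPM in 7 dpci, 7.35, 60.8 and 45.6 CPM in GFP-HRAS DMSO and 0.457, 0.794 and 0.386 CPM in RFP DMSO. It rose by 6.11 ± 0.95 in GFP-HRAS DMSO (adjusted p = 0.000746), and 7 dpci against GFP-HRAS DMSO gave -5.08 ± 0.82 (adjusted p = 0.00111). LOXL1, another lysyl oxidase, had 166, 136 and 118 CPM in 7 dpci, 33.1, 30.3 and 38.0 CPM in GFP-HRAS DMSO and 335, 269 and 202 CPM in RFP DMSO. It fell by 2.99 ± 0.44 in GFP-HRAS DMSO (adjusted p = 0.000572), and its change in 7 dpci missed the threshold (-0.94, adjusted p = 0.0708).

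Genes for matrix proteins and for collagen removal did not all move alike. FN1 ENSDARG00000019815, a fibronectin, had 63.0, 65.7 and 87.8 CPM in 7 dpci, 22.7, 88.9 and 43.8 CPM in GFP-HRAS DMSO and 1.44, 0.733 and 1.16 CPM in RFP DMSO. It rose by 6.02 ± 0.82 in 7 dpci (edgeR adjusted p = 0.000324) and by 5.55 ± 0.87 in GFP-HRAS DMSO (adjusted p = 0.000772), with no overlap with RFP DMSO in either. The other fibronectin gene, FN1 ENSDARG00000006526, had 5371, 5444 and 4218 CPM in 7 dpci, 1024, 1440 and 851 CPM in GFP-HRAS DMSO and 1023, 1032 and 424 CPM in RFP DMSO. It rose by 2.60 ± 0.35 in 7 dpci (adjusted p = 0.000315) and was not called in GFP-HRAS DMSO (0.42, adjusted p = 0.342), where it overlapped RFP DMSO. POSTN ENSDARG00000104267, a periostin of activated fibroblasts, had 777, 775 and 1087 CPM in 7 dpci, 64.9, 403 and 112 CPM in GFP-HRAS DMSO and 7.31, 40.3 and 3.75 CPM in RFP DMSO. It was higher than in RFP DMSO by 5.68 ± 1.0 in 7 dpci (adjusted p = 0.00118) and by 3.50 ± 0.98 in GFP-HRAS DMSO (adjusted p = 0.0128), a call that did not hold when GFP-HRAS DMSO replicate 2 was left out (adjusted p = 0.0585). The collagenase gene mmp13b had 2.49, 5.44 and 7.43 CPM in 7 dpci and 2.42, 3.32 and 1.75 CPM in GFP-HRAS DMSO. In RFP DMSO mmp13b had 0, 0 and 0.386 CPM, and it was called higher in GFP-HRAS DMSO. Its paralogue mmp13a was not called, at -2.12 ± 0.81 in 7 dpci (adjusted p = 0.0553) and 0.11 ± 0.74 in GFP-HRAS DMSO (adjusted p = 0.912). The protease MMP2 rose by 2.98 ± 0.36 in 7 dpci (adjusted p = 0.000202) and by 1.79 ± 0.38 in GFP-HRAS DMSO (adjusted p = 0.00317). TIMP2 ENSDARG00000075261, a protease inhibitor, had 38.6, 48.0 and 61.2 CPM in 7 dpci, 421, 1097 and 1056 CPM in GFP-HRAS DMSO and 23.3, 5.80 and 3.53 CPM in RFP DMSO. It rose by 6.31 ± 1.08 in GFP-HRAS DMSO (adjusted p = 0.00115), and 7 dpci against GFP-HRAS DMSO gave -4.12 ± 0.90 (adjusted p = 0.00555). The cysteine protease CTSK, which cuts collagen, had 52.6, 49.6 and 42.4 CPM in GFP-HRAS rapamycin, against 106, 134 and 97.8 CPM in GFP-HRAS DMSO, and fell by 1.23 on the log2 scale (adjusted p = 0.00572), with no overlap.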

How the data were processed

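Ventricle RNA was taken up in QIAzol and sequenced from CORALL mRNA libraries, per the labels' protocols. GRCz11 is the build that the submitters' processing notes name, beside featureCounts 1.6.0, HISAT2 2.1.0 and UMI-tools 1.1.1. The strand setting and annotation release were not given in the sources used here, though either could shift a gene's count. The authors deposited whole-number counts per gene, without normalization, in 2 tables. Groups follow the sample titles, with UR in a column name taken as UAS:RFP. Of 18 labelled samples, the 3 uninjured ones were not analysed here.

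Counts were fitted with edgeR 4.0.16 in R 4.3.3 (TMM scaling, filterByExpr by group, glmQLFit, glmQLFTest, Benjamini-Hochberg adjustment over all genes), once for the 12 transgenic libraries (16044 genes) and once for all 15 (16421 genes); the procedure was tested on simulated data. Each SE is the size of the log2 fold change over the root of its F statistic. Library totals were 15861618 to 20003711. Where a group had 0 counts the bound uses 3 counts over the group, and with 1 to 3 counts the ratio has a 95% interval; both cover counting error only. Alternatives were DESeq2 1.42.0, library totals, no filter, a replicate block, the groups compared alone and leaving out each library.

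The members, partner lists and marker lists were chosen with earlier results of these data known. Named genes were the 15 of highest mean CPM, the 4 largest called rises and falls of each comparison and, per partner list, up to 4 by level and 2 by change; others are named to account for all members. Listed symbols were matched ignoring case, and failing that by family symbol. Paralogues and genes on opposite strands may share reads. Protein and promoter sequences and gene lengths were not used.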

Additional observations from a re-analysis of the deposited data

How the results depend on the processing

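Over 452 gene-level values and 5248 alternatives, 4851 kept direction and side of the threshold, 265 lost and 132 gained a call, and 0 reversed. The calls of GFP-HRAS DMSO and of 7 dpci against RFP DMSO stayed within 1.5 times of 24 and 30 under every alternative, at 19 to 24 and 22 to 26 when leaving out 1 library. GFP-HRAS rapamycin against RFP rapamycin had 13 calls, 7 with a replicate block, 4 with the pair fitted alone and 4 to 15 when leaving out 1 library. GFP-HRAS rapamycin against GFP-HRAS DMSO had 2 calls, 6 with library totals, 1 with the block, 4 with DESeq2, 0 with the pair alone and 0 to 10 when leaving out 1 library. The 7 dpci against GFP-HRAS DMSO comparison had 14 calls, 23 with the pair alone and 9 to 13 when leaving out 1 library. Fits of fewer libraries have fewer degrees of freedom, but call numbers moved both ways in them, and the cause was not tested. Without mitochondrial genes in the total, the collagen share was 0.933% in 7 dpci, 0.0816% in RFP rapamycin and 0.0726% in RFP DMSO.

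Library totals moved the median of all genes to 0.49 (log2) for GFP-HRAS DMSO against RFP DMSO and to 0.12 for GFP-HRAS rapamycin against RFP rapamycin. The median went to -0.44 for GFP-HRAS rapamycin against GFP-HRAS DMSO, to 0.14 for 7 dpci against RFP DMSO and to -0.39 for 7 dpci against GFP-HRAS DMSO. On that scale GFP-HRAS DMSO against RFP DMSO had 6084 genes higher and 1812 lower, against 3991 and 3630. Over all genes, GFP-HRAS rapamycin against GFP-HRAS DMSO had 1947 calls, 3472 with library totals, 3126 with DESeq2, 1271 with the block, 766 with the pair alone and as few as 533 without 1 library. GFP-HRAS rapamycin against RFP rapamycin had 2909 calls over all genes, 838 with the pair alone and 881 to 4864 without 1 library. For 7 dpci against GFP-HRAS DMSO there were 4733 calls over all genes, 6136 with the pair alone and as few as 2948 without 1 library. Rapamycin in RFP had 0 calls, 27 with DESeq2 and up to 2 without 1 library, and the interaction had 8, with 519 by DESeq2, 125 with library totals, 44 with the block, 26 with no filter and 0 to 81 without 1 library. Same-numbered libraries did not deviate together: 2 of 30 pairs correlated above 0.1, and 1 of 15 libraries correlated best with its own number, so the block is a check only. Levels per coding length were not run, since no lengths were used here. Depth limits the genes with few counts, whose ratios have wide intervals.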
